A study of Mus musculus with 12 samples.

Results

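Measured here were 53 genes of the cell cycle and of DNA replication, chosen by a list of gene symbols. They were split into 26 S-phase members, which license, start and carry out DNA synthesis, and 27 mitotic members, which drive entry into mitosis and the separation of chromosomes. Of the 53, 52 had probe sets carrying their symbol alone (112 probe sets, of which 95 read over a log2 value of 4 on at least 3 of 12 arrays), and each of the 52 kept at least 1 such probe set. The probe set with the highest mean stood for its gene among 11449 genes tested in all. Ccnb1, the gene of cyclin B1, was not analysed here.

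The study compared wild-type mice with Qkf gt/gt mutants, which carry a gene-trap allele on both copies of Qkf (now Kat6b), at 2 stages. All mice were of strain 129/Sv. Each of the 4 groups had 3 arrays. The adult groups were dorsal cerebral cortex of wild-type males aged 155, 112 and 101 days and of mutant males aged 155, 112 and 99 days. The embryonic groups were dorsal telencephalon of wild types and of mutants at E12.5. Wild-type embryo 1 and mutant embryo 1 shared their parents, and the other 4 embryonic arrays came from another pair of parents, by the labels. The labels name no Cre driver or promoter. They do not say whether an embryonic array held 1 embryo, and each is called an embryo below, so that p-values measure the spread between these samples.

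Kat6b encodes a histone acetyltransferase. At midgestation the dorsal telencephalon is a sheet of dividing neural progenitors with the earliest neurons at its surface, whereas neurons of the adult cortex have left the cell cycle. Cells prepare DNA replication in G1 by loading the MCM helicase onto origins, replicate in S phase, and then raise another wave of transcripts for mitosis. E2F factors are known to drive S-phase genes, and complexes built on MuvB with B-Myb and FoxM1 drive mitotic genes through the cell cycle homology region (CHR), often beside boxes bound by NF-Y.

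The promoter windows show how the S-phase and mitotic members differ in sequence. RefSeq windows of assembly GRCm38.p6, which run from 250 bases before to 50 bases after the annotated start, were held for 44 of the 53 members, 21 S-phase and 23 mitotic. They were searched on both strands for E2F-type letters (TTTGGCGC, TTTCCCGC, TTTCGCGC or TTTGCCGC), for the CHR letters TTTGAA and for the NF-Y box CCAAT. Matches of different motifs overlapped in 1 member window only, of Mcm7. Printed here are windows of Cdc6 and Mcm5 with E2F-type letters, of Cdk1 with all 3 motifs, and of Plk1 and Top2a with CHR and NF-Y letters. Troap is added because it had the largest embryonic mutant difference among the members, and its window held NF-Y boxes alone. Capitals mark the matches on either strand, and in Mcm5 a pair of E2F-type matches on opposite strands overlap.
Cdc6, chr11:98907901-98908200, + strand: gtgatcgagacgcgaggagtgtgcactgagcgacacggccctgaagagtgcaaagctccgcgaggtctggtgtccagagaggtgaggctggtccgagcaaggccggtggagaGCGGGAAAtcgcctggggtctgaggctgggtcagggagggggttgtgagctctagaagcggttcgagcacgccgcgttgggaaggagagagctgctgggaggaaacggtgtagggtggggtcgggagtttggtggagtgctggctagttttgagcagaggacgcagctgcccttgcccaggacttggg
Mcm5, chr8:75109259-75109558, + strand: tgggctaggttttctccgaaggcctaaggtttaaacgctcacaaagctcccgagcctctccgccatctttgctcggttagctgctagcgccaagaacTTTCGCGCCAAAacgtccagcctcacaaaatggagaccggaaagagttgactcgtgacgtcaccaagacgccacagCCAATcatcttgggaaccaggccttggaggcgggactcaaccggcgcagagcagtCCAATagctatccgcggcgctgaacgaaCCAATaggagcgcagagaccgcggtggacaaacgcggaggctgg
Cdk1, chr10:69352863-69353162, - strand: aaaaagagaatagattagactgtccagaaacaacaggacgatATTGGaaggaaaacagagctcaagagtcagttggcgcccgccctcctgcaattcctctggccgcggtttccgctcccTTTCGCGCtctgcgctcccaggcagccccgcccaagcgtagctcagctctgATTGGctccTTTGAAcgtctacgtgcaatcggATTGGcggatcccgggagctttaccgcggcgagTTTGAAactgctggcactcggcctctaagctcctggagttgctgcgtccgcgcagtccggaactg
Plk1, chr7:122159185-122159484, + strand: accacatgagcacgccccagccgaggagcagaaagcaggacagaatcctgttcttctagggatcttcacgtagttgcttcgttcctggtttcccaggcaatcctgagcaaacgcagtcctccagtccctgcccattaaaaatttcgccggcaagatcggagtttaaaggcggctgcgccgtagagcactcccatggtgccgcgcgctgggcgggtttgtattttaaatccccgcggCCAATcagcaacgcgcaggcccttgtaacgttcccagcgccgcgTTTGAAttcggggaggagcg
Top2a, chr11:99024140-99024439, - strand: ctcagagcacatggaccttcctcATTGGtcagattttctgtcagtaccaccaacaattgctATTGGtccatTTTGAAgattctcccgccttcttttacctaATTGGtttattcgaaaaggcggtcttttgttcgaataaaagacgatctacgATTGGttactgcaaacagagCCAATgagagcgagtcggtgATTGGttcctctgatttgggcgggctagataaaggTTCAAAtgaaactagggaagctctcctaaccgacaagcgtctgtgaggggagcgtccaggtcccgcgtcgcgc
Troap, chr15:99074723-99075022, + strand: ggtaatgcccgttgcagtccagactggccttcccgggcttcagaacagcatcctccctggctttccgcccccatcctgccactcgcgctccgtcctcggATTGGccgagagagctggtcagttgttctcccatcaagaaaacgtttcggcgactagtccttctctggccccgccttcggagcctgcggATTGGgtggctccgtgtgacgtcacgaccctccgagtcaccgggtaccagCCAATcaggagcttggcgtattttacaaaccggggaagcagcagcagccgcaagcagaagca

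E2F-type letters were found in 11 of 21 S-phase members (52.4%) and in 1 of 23 mitotic members (4.35%), which was Cdk1, beside 2.6% of all 27025 genes with a window. The CHR letters showed the opposite split, with 2 of 21 S-phase members (9.52%), 16 of 23 mitotic members (69.6%) and 20.2% of all genes. NF-Y boxes were found in 66.7% of S-phase members, 87.0% of mitotic members and 41.1% of all genes. All 16 mitotic members with CHR letters also held an NF-Y box in the same window, a combination found in 7.97% of all genes. In lists of further genes, E2F-type letters were found in 6 of 20 replication factors (30.0%) and in 4 of 24 mitotic factors (16.7%), and CHR letters in 4 of 20 (20.0%) and 18 of 24 (75.0%). These shares describe letters and carry no test, and the arrays do not measure binding.

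**Figure D1:**
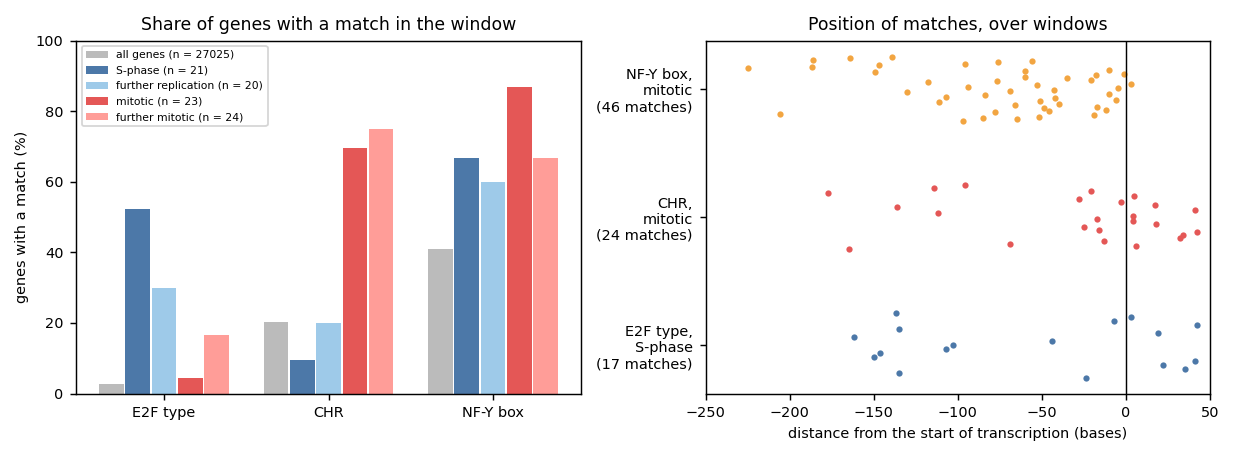
Left, the percentage of genes whose window holds each motif, for all genes and 4 gene lists (bars, with the number of genes in brackets). Right, the distance of each match from the start of transcription in bases (points; windows from alternative starts of a gene are each shown). E2F-type bars are tallest in the S-phase members (52.4%), CHR bars are tallest in the mitotic lists (69.6% and 75.0%), and 45 of 46 NF-Y matches of mitotic members lie before the start.

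The matches also differed in place. Over the windows of mitotic members, 19 of 24 CHR matches lay between 100 bases before and 50 bases after the start, with a median at -14.5 bases. NF-Y matches of the same members had a median of -62.5 bases, and 45 of 46 lay before the start. E2F-type matches of S-phase members were spread from -162 to 42 bases, with 9 of 17 in the nearer stretch. The mitotic members Ect2 and Prc1 had overlapping windows from alternative starts, so their matches are counted more than once. Positions over all genes were not measured, so these places are not shown to be particular to the members.

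The targeted gene and the tissue markers were read next. Kat6b stood at 9.68, 9.35 and 9.72 in wild-type adults and at 7.25, 7.17 and 6.92 in mutant adults. In embryos it stood at 11.28, 11.40 and 11.42 in wild types and at 6.22, 7.24 and 7.72 in mutants, and the groups did not overlap at either stage. The mean of 9 neural progenitor markers (Sox2, Pax6 and others) was 11.54 to 11.63 in embryos and 7.14 to 7.27 in adults. That of 7 neuronal markers was 9.51 to 9.88 in embryos and 12.12 to 12.26 in adults. Of these 7, 5 were higher and 2 (Dcx and Tubb3) lower in adult wild types. Arrays also differed within groups. Ventral telencephalon markers averaged 8.0 and 7.42 in the embryos of the first pair of parents and 3.30 to 5.22 in the others. Adult mutants 1 and 2 had a larger gap between 3' and 5' actin probe sets (1.91 and 1.47, against 1.06 to 1.13 in the other adults), and adult mutant 3 had Ttr, a choroid plexus transcript, at 15.16 (6.78 to 9.18 in the other adults).

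The comparison of stages asked how the members differ between the adult cortex and the E12.5 telencephalon. Proliferation genes that were high in embryos, such as Mki67, Top2a and Nusap1, were at or near the lowest value of the scale, 2.19, in adults. A smaller set, mostly of the replication machinery, was still read over 4 on every adult array: 12 of 26 S-phase members and 3 of 26 mitotic members. All 15 of these fell in adult wild types, by 1.10 (Ccne1) to 7.32 (Cdc20) on the log2 scale, by limma with Benjamini-Hochberg adjustment over all genes. Of all genes, 43% were lower and 38.4% higher in adult than in embryonic wild types by the same rule (adjusted p under 0.05). Fewer cells of a dividing type and less RNA per cell cannot be told apart in these tissue samples. Adult and embryonic arrays also fell in separate array sets, so stage and array set cannot be told apart. The adults were all males, whereas the embryos differed in sex by their Xist values, and the part of sex was not tested.

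All 52 members tested were called lower in adults, in wild types and again in mutants, where 42.2% of all genes were lower. For 35 of them that count is no support, since no adult array read over 4 and they passed the filter through the embryos alone. The other 17 were the 15 above, Orc1 (over 4 on 4 of 6 adult arrays) and Cenpa (5 of 6). The wild-type and mutant comparisons share no array. The difference ran from -9.68 for Mki67 to -1.10 for Ccne1 in wild types, and from -9.76 for Top2a to -1.32 for Ccne1 in mutants. All 95 probe sets of members over the filter were lower in adult than in embryonic wild types. For probe sets with no adult array over 4 this direction is likewise no support, since they passed through the embryos alone. The share over all probe sets was not measured.

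**Figure D2:**
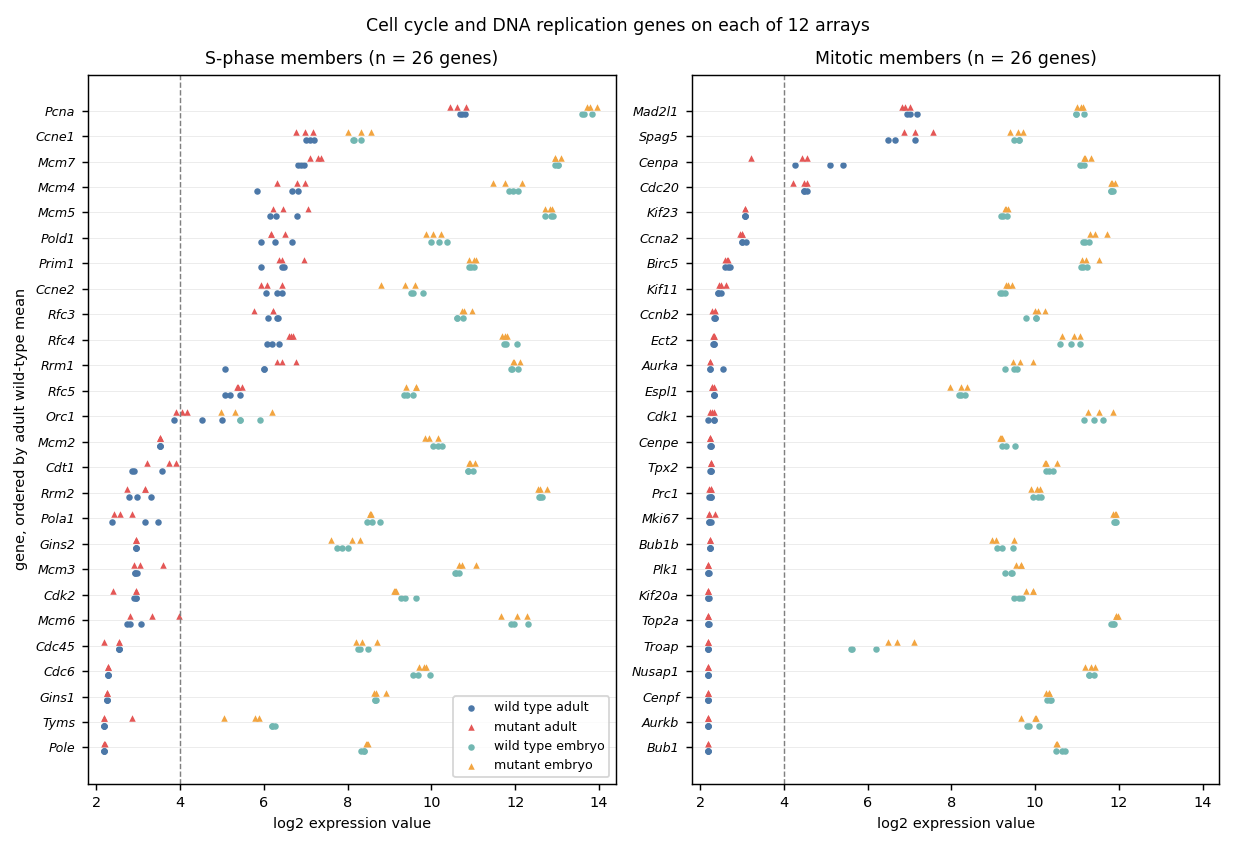
Log2 expression value (x axis) of each of 52 members (y axis, ordered by adult wild-type mean for display) on each of 12 arrays, with circles for wild types and triangles for mutants. The dashed line marks 4: all embryonic values lie to the right of it, and 22 of 26 mitotic members have every adult value to the left of it against 13 of 26 S-phase members. Values of different genes come from different probes and are not compared in level.

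Origin licensing places the MCM helicase on DNA through Orc1, Cdc6 and Cdt1. Mcm7, a helicase subunit, stood at 6.88, 6.96 and 6.81 in wild-type adults and at 13.02, 12.95 and 13.02 in wild-type embryos, a difference of -6.11 (SE 0.10, adjusted p = 3.54e-13). The subunit Mcm4 ran from 5.84 to 6.99 over the 6 adults and from 11.46 to 12.15 over the 6 embryos. Mcm5, another subunit, ran from 6.15 to 7.04 in adults and from 12.70 to 12.91 in embryos. Adult and embryonic values were far apart in all 3 genes, and all 3 were still read in adults. Mcm5 depended on the probe set, since 1415945_at read 2.35 to 2.73 in adults. Mcm6, a further subunit, fell from 12.30, 11.90 and 11.98 in wild-type embryos to 3.07, 2.79 and 2.72 in wild-type adults on 1438852_x_at (-9.20, SE 0.26). Its other passing probe set, 1416251_at, read 3.19 to 4.13 in adults and had a difference of -6.74. The loading factors Cdc6 and Cdt1 (differences of -7.46 and -7.80) and the subunits Mcm2 and Mcm3 (-6.63 and -7.67) had no adult array over 4.

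Orc1, a subunit of the origin recognition complex, had a small difference. It stood at 4.53, 4.99 and 3.86 in wild-type adults and at 5.91, 5.43 and 5.42 in wild-type embryos, a difference of -1.13 (SE 0.32, limma adjusted p = 0.0073). The wild-type groups did not overlap, with the nearest adult at 4.99 and the nearest embryo at 5.42. Its other passing probe set, 1422663_at, was at 2.19 in all wild-type adults and fell by 3.66. Cdc45, Gins1 and Gins2, which activate the loaded helicase, fell by 4.94 to 6.40 and had wild-type adult means between 2.25 and 2.94.

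Among the polymerases, the clamp and its loader, 6 of 8 members were read over 4 on every adult array. Pcna, the sliding clamp, stood at 10.79, 10.74 and 10.68 in wild-type adults, at 10.44, 10.60 and 10.83 in mutant adults, and between 13.60 and 13.95 in the 6 embryos. It was far above the lowest value on every adult array, and its difference of -2.96 (SE 0.12) was among the 5 smallest of the members. The clamp loader subunit Rfc3 ran from 5.76 to 6.33 in adults and from 10.60 to 10.97 in embryos, and the subunit Rfc4 from 6.08 to 6.70 and from 11.69 to 12.04. Rfc5, of the same loader, fell by 4.22. Prim1, the catalytic primase subunit, ran from 5.92 to 6.95 in adults and from 10.89 to 11.06 in embryos. None of these groups overlapped between stages. Pold1, the catalytic subunit of polymerase delta, ran from 5.94 to 6.67 in adults on 1456055_x_at but from 2.60 to 2.80 on 1448187_at. Pola1 and Pole, the catalytic subunits of the alpha and epsilon polymerases, had no adult array over 4 and fell by 5.60 and 6.17.

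The nucleotide suppliers and the G1/S regulators spanned nearly the whole range. Rrm2, the small subunit of ribonucleotide reductase, stood at 2.97, 2.77 and 3.30 in wild-type adults and at 12.64, 12.56 and 12.58 in wild-type embryos (-9.58, SE 0.15). Rrm1, the large subunit of the same enzyme, stood at 6.0, 5.07 and 5.99 in wild-type adults and at 11.90, 11.93 and 12.07 in wild-type embryos (-6.28, SE 0.22). A further Rrm1 probe set, 1440073_at, was at 2.19 on all adult arrays. Tyms, thymidylate synthase, was at 2.19 on 5 of 6 adult arrays. Ccne1, cyclin E1, stood at 7.0, 7.10 and 7.19 in wild-type adults and at 8.14, 8.13 and 8.32 in wild-type embryos, the smallest difference of all (-1.10, SE 0.15, adjusted p = 3.14e-05). Ccne2, cyclin E2, ran from 5.93 to 6.42 in adults and from 8.80 to 9.79 in embryos (-3.36, SE 0.20). Their partner kinase Cdk2 had no adult array over 4 and fell by 6.48.

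Most mitotic members read under 4 in adults. All 6 measured cyclins and entry kinases had no adult array over 4, with wild-type adult means from 2.19 to 3.03 and embryonic wild-type means from 9.38 to 11.40. Cdk1, the mitotic kinase, fell by 9.11, its cyclin partners Ccna2 and Ccnb2 by 8.17 and 7.60, Plk1 by 7.18, and the aurora kinases Aurka and Aurkb by 7.11 and 7.72. Since adult values lay at or near the lowest value of the scale, these differences are set mainly by the embryonic level.

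The checkpoint and spindle groups held the 3 mitotic exceptions. Mad2l1, a spindle checkpoint protein, stood at 7.02, 6.94 and 7.17 in wild-type adults, at 6.90, 7.01 and 6.83 in mutant adults, and from 10.97 to 11.16 in embryos (-3.99, SE 0.10). Cdc20, the activator of the anaphase-promoting complex, ran from 4.21 to 4.55 in adults and from 11.80 to 11.91 in embryos, and its other passing probe sets read lower in adults (3.69 to 4.02 on 1416664_at and 2.19 on 1439394_x_at). Spag5, the spindle protein astrin, ran from 6.49 to 7.56 in adults and from 9.40 to 9.72 in embryos (-2.82, SE 0.19). Of these 3, only Mad2l1 read over 4 on all adult arrays with every passing probe set, as did 8 of the 12 S-phase members. Mad2l1 had just 1 probe set, as did Pcna, Rfc5 and Ccne2 among those 8, so no other probe set could disagree. The checkpoint kinase Bub1 (-8.43), its relative Bub1b (-7.04) and separase, Espl1 (-5.92), had no adult array over 4.

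Cenpa, the histone variant of the centromere, varied among adults. It stood at 5.11, 4.27 and 5.40 in wild types and at 3.22, 4.55 and 4.43 in mutants, against 11.07 to 11.34 in embryos. The kinetochore proteins Cenpe and Cenpf fell by 7.09 and 8.16 and survivin, Birc5, of the passenger complex by 8.50. The motors Kif11, Kif20a and Kif23 and the spindle proteins Tpx2, Prc1 and Ect2 fell by 6.19 to 8.51. Nusap1, a microtubule protein, stood at 2.19 on all 6 adult arrays and from 11.18 to 11.43 in embryos (-9.13, SE 0.09). Troap, a spindle-associated protein, was also at 2.19 on all adult arrays but had a smaller difference (-3.63, SE 0.18), its wild-type embryos standing at 5.63, 5.61 and 6.21. Top2a, the topoisomerase that untangles chromosomes, stood at 2.19 or 2.20 in all adults and from 11.82 to 11.97 in embryos (-9.66, SE 0.08). Mki67, the Ki-67 antigen, stood at 2.27, 2.21 and 2.21 in wild-type adults and at 11.90, 11.88 and 11.94 in wild-type embryos (-9.68, SE 0.08, adjusted p = 1.28e-14).

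**Figure D3:**
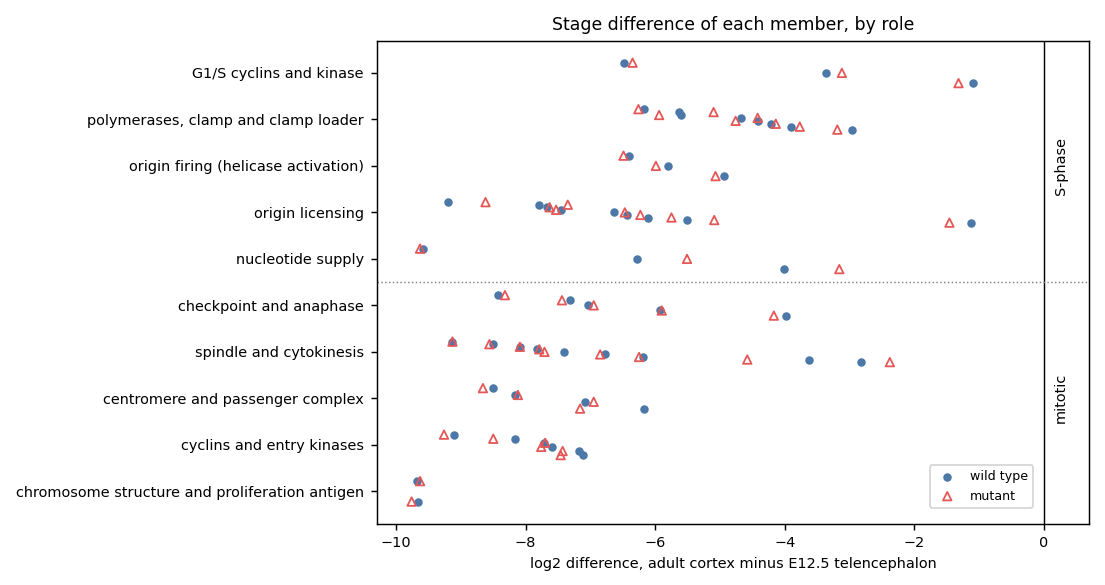
Log2 difference of adult cortex minus E12.5 telencephalon (x axis) for each of 52 members, by role (y axis), in wild types (filled circles) and in mutants (open triangles). All points lie below 0. Ccne1 and Orc1 are the points nearest to 0, and Mki67 and Top2a are at the left end with differences under -9.6 in each genotype.

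As a description, the median difference in wild types was -5.72 over the S-phase members and -7.50 over the mitotic members, beside -0.08 over all genes. The mean over S-phase members was 1.76 above that over mitotic members in wild types and 2.00 above it in mutants. It was 1.40 in wild types and 1.49 in mutants when all passing probe sets of a gene were averaged. Adult values at the lowest end of the scale understate a fall, and 20 mitotic and 9 S-phase members had wild-type adult means under 3. Within the S-phase members, 4 of 11 with E2F-type letters and 6 of 10 without were read over 4 on all adult arrays, with medians of -6.43 and -5.16. Within the mitotic members, the medians were -7.25 over the 16 with CHR letters and -7.76 over the 6 without.

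Other cell cycle genes showed which regulators moved with the members and which did not. Of 85 further genes tested, 79 were lower and 3 higher in adult wild types, beside 43% and 38.4% of all genes. For 29 of the 85 the count is no support, since no adult array read over 4 and they passed the filter through the embryos alone. The 3 that rose were E2f5, an E2F factor of the repressor class (8.33, 8.34 and 8.41 in embryos, 9.06, 9.33 and 9.22 in adults, difference 0.84), the kinase inhibitor Cdkn2d (0.74) and Lin37, a MuvB subunit (0.62). E2f5 was lower (-1.53) when its probe sets were averaged. Not called were the inhibitor Cdkn1a (-0.24), the pocket protein Rbl2 (0.16) and the MuvB subunit Lin52 (-0.25). The largest falls were those of the ubiquitin-conjugating enzyme Ube2c (-9.65), the mitotic kinase Pbk (-8.42) and Cdca3 (-8.12). All 23 further replication factors were lower, with a median of -2.35, and all 26 further mitotic factors, with a median of -6.50. On every adult array, 19 of those 23 and 9 of those 26 read over 4, while 3 and 17 read over 4 on no adult array.

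The comparison of adult genotypes asked whether the members differ in mutant cortex, where 35 of the 52 had no array over 4. None of the 52 was called by limma, beside 0.0524% of all genes (6 genes) in either direction. At an unadjusted p under 0.05, 5 members were higher and 1 was lower in mutants, while 4.54% of all genes met that rule. Of the S-phase members 13 were higher and 11 lower, and of the mitotic members 4 and 15, with a median difference of 0 for each and 0.03 over all genes. Over all 11449 genes, 6718 were higher and 4587 lower. No adult array read over 4 for 13 of 26 S-phase and 22 of 26 mitotic members. Most of the mitotic signs thus rest on values under 4 and give no direction.

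The lowest p-values were those of 3 S-phase members whose mutant arrays all lay above the wild types. Rfc4, the clamp loader subunit, stood at 6.08, 6.19 and 6.36 in wild-type adults and at 6.70, 6.64 and 6.60 in mutants, a difference of 0.44 (SE 0.11, adjusted p = 0.669). Mcm7 stood at 6.88, 6.96 and 6.81 against 7.11, 7.30 and 7.35 (0.37, SE 0.10, adjusted p = 0.679). Rrm1 stood at 6.0, 5.07 and 5.99 against 6.30, 6.77 and 6.42 (0.81, SE 0.22, adjusted p = 0.70). In each of the 3 the groups did not overlap, as in 6.73% of all genes with mutants higher and 2.66% with mutants lower. No S-phase or mitotic member had all mutants lower. Other probe sets of these genes differed: 1438161_s_at of Rfc4 stood at 4.93, 4.79 and 4.81 in wild types and at 4.69, 4.53 and 3.39 in mutants, 1448127_at of Rrm1 had a difference of -0.39, and the 3 other probe sets of Mcm7 had differences of 0.09 to 0.30. Rrm1 went to 0.51 without wild-type adult 2, its lowest array.

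Cdt1, the licensing factor, stood at 3.56, 2.85 and 2.90 in wild types and at 3.20, 3.73 and 3.90 in mutants (0.51, SE 0.21, adjusted p = 1), under 4 on every array and with overlapping groups. Among mitotic members, Cenpa had a difference of -0.86 (SE 0.34, adjusted p = 1) that went to -0.44 without mutant adult 1, and its groups overlapped. Mad2l1 (-0.13, 95% interval -0.35 to 0.09) and Cdc20 (-0.09, -0.31 to 0.13) had narrow intervals around 0. For Cdc20 the interval rests on adult values just over 4 (4.21 to 4.55). Its other passing probe sets read 3.69 to 4.02 and 2.19 in adults, so a difference may not have been readable. Spag5 turned on the probe set. On 1433893_s_at, which stood for the gene, it read 6.65, 6.49 and 7.12 in wild types and 6.87, 7.14 and 7.56 in mutants (0.44, SE 0.19, adjusted p = 1), and the difference was 0.26 without mutant adult 3, the array with the high Ttr value. On 1433892_at it read 4.97, 4.66 and 4.61 in wild types and 5.78, 5.75 and 5.62 in mutants, with no overlap, and when probe sets with the suffixes _s_at and _x_at, which mark probes shared between transcripts, were left out, this difference of 0.97 was called (limma adjusted p = 0.0124). Over all alternatives the adjusted p of Spag5 ran from 0.0124 to 1. Another, 1427498_a_at, had a difference of -0.20 with all mutants at 3.19. Beside these differences, the mean of 5 tested endothelial and pericyte markers was 5.87 to 5.98 in wild-type adults and 6.15 to 6.20 in mutant adults, with no overlap. Of the 5, 3 were higher in mutants at an unadjusted p under 0.05 and none was called: Tek (0.33), Pdgfrb (0.40) and Cdh5 (0.22). Cdh5 itself was under 4 on all adult arrays, Pecam1 was at 4.19 on all of them, and Kdr, not tested, was at 2.19. The actin 3' to 5' gap was larger in mutants 1 and 2. The part of these markers or of the actin gap in the differences was not tested.

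**Figure D4:**
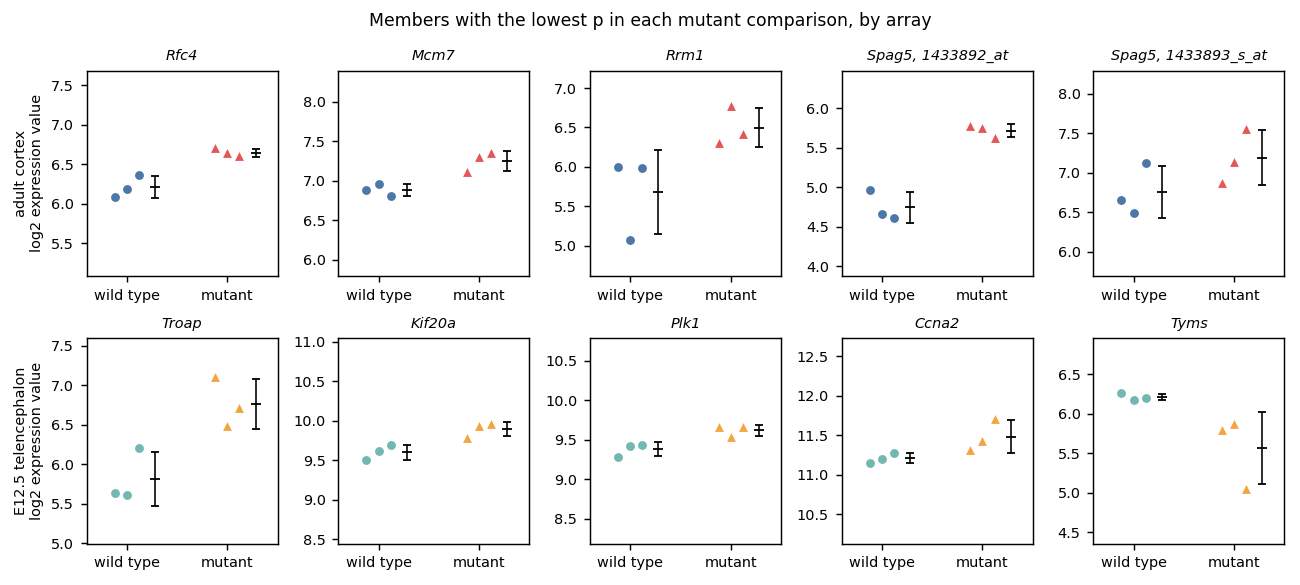
Log2 expression values by array of members with low p-values (top row, adult cortex, with 2 probe sets of Spag5; bottom row, E12.5 telencephalon), with circles for wild types, triangles for mutants and the mean with SD of 3 arrays beside them. Each panel spans the same height on the log2 scale. Rfc4, Mcm7, Rrm1, the 1433892_at probe set of Spag5 and the embryonic genes show no overlap between genotypes, and 1433893_s_at of Spag5 overlaps.

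In embryos all 52 members were read over 4 on every array, and the comparison of genotypes asked whether the mutant telencephalon differs in cell cycle transcripts. None of the 52 was called by limma, beside 0.0349% of all genes (4 genes). At an unadjusted p under 0.05, 4 mitotic members were higher and 1 S-phase member was lower, while 4.51% of all genes met that rule. The differences were small on both sides: the S-phase members were positive in 15 of 26 and the mitotic members in 16 of 26, each with a median of 0.04, beside -0.01 over all genes. For the genes most used to mark division the intervals were tight, with Mki67 at -0.02 (95% interval -0.20 to 0.17) and Top2a at 0.09 (-0.08 to 0.25).

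Troap had the lowest p. Wild-type embryos read 5.63, 5.61 and 6.21 and mutants 7.11, 6.48 and 6.71, a difference of 0.95 (SE 0.18, limma adjusted p = 0.141). All mutants lay above all wild types, and without wild-type embryo 3, the highest of them, the difference was 1.14 and was called (limma adjusted p = 0.0383). Over the other alternatives its adjusted p ran from 0.076 to 0.985. A second Troap probe set, 1433790_at, did not pass the filter and read 2.25, 2.19 and 2.54 in wild types and 2.98, 3.94 and 4.90 in mutants.

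In 7 of 26 mitotic members all mutant embryos lay above all wild types, beside 3.23% of all genes, and in none did they all lie below. The 7 were Troap, the kinesins Kif20a and Kif11, Plk1, Ccna2, Cenpa and Top2a. Kif20a, a motor of cytokinesis, stood at 9.50, 9.62 and 9.69 in wild types and at 9.79, 9.94 and 9.96 in mutants (0.29, SE 0.09, adjusted p = 0.611). Plk1, the polo kinase of mitotic entry, stood at 9.28, 9.42 and 9.44 against 9.66, 9.54 and 9.66 (0.24, SE 0.08, adjusted p = 0.807). Ccna2, cyclin A2, stood at 11.15, 11.20 and 11.28 against 11.31, 11.43 and 11.71 (0.28, SE 0.11, adjusted p = 0.945), and its difference was 0.16 without mutant embryo 3. These gaps were narrow, and the other passing probe set of Ccna2, 1417910_at, had a difference of -0.15. With passing probe sets averaged, 4 mitotic members lay apart with mutants higher and 1 with mutants lower. In the list of 26 further mitotic factors, 0 had all mutants higher and 0 all lower, and the median difference was -0.01.

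The average over the mitotic members rested in part on Troap. The deviation from the wild-type mean was -0.005, -0.035 and 0.039 in wild types and 0.061, 0.067 and 0.151 in mutants. Without Troap it was 0.002, -0.028 and 0.025 in wild types and 0.012, 0.043 and 0.121 in mutants, so that mutant 1 lay below wild type 3. Over the S-phase members it was 0.071, -0.062 and -0.009 against 0.004, -0.042 and -0.055, with overlap. The mean mitotic difference was 0.09, 0.06 without Troap, and 0.11 without both embryos of the first pair of parents, and no test was made of these averages. Markers of other cell types also differed between the arrays. The mean of 5 tested endothelial and pericyte markers was 6.18 to 6.41 in wild-type embryos and 6.47 to 6.58 in mutants, with no overlap. Of the 5, 4 were positive and 2 had an unadjusted p under 0.05, Pecam1 (0.73) and Cdh5 (0.32). The 4 tested microglial markers were all positive, Csf1r by 0.74, with means of 4.68 to 5.17 in wild types and 5.14 to 5.58 in mutants. Of 4 astrocyte markers, 3 were positive, with Gfap at 2.11 and Aqp4 between 2.19 and 2.83 on all embryonic arrays, and the means were 4.15 to 4.61 in wild types and 4.62 to 5.06 in mutants. The gap in these means was mainly that of Gfap, which read under 4 in every wild-type embryo. Slc1a3 had a difference of 0.01 and Aldh1l1 of -0.09. Of 4 tested erythroid markers, 3 were positive (median 0.26). Their means overlapped, at 11.36 to 12.56 in wild types and 11.82 to 12.45 in mutants. The progenitor and ventral telencephalon lists did not rise. Of 9 neural progenitor markers 4 were positive and 5 negative (median -0.03), and of 5 intermediate progenitor markers 2 and 3 (median -0.05). Lhx2 (-0.37) and Insm1 (-0.37), of these 2 lists, were lower at an unadjusted p under 0.05. All 5 tested ventral telencephalon markers were negative (median -0.86). None of these markers was called. The embryos also differed in sex, which was not labelled: Xist was at 13.12 and 13.14 in wild types 1 and 2 and at 12.71 in mutant 3 and at 2.19 in the others. The array of mutant embryo 1 carries a different date in its label. The part of these markers, of sex, of dissection or of array date in these differences was not tested.

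Among the S-phase members, Pole alone had all mutant embryos above all wild types, and 2 had all mutants below, as did 5.06% of all genes. Tyms, thymidylate synthase, stood at 6.26, 6.18 and 6.20 in wild types and at 5.79, 5.87 and 5.05 in mutants (-0.65, SE 0.22, adjusted p = 0.762), and its difference was -0.39 without mutant 3. Its other passing probe set, 1442192_at, had a difference of -0.45. Cdk2 stood at 9.63, 9.26 and 9.37 against 9.12, 9.15 and 9.10 (-0.30, SE 0.15, adjusted p = 1), and its difference was -0.19 without wild-type embryo 1. The mutant arrays were thus lower in both genes, without passing the test. Ccne2 had a difference of -0.36 (SE 0.20) and Mcm2 of -0.16 (SE 0.10), each with overlapping groups. Ccne2 went to -0.14 without mutant embryo 3 and Mcm2 to -0.09 without mutant embryo 2, and Mcm2 was at 0.08 when probe sets with the suffixes _s_at and _x_at were left out.

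**Figure D5:**
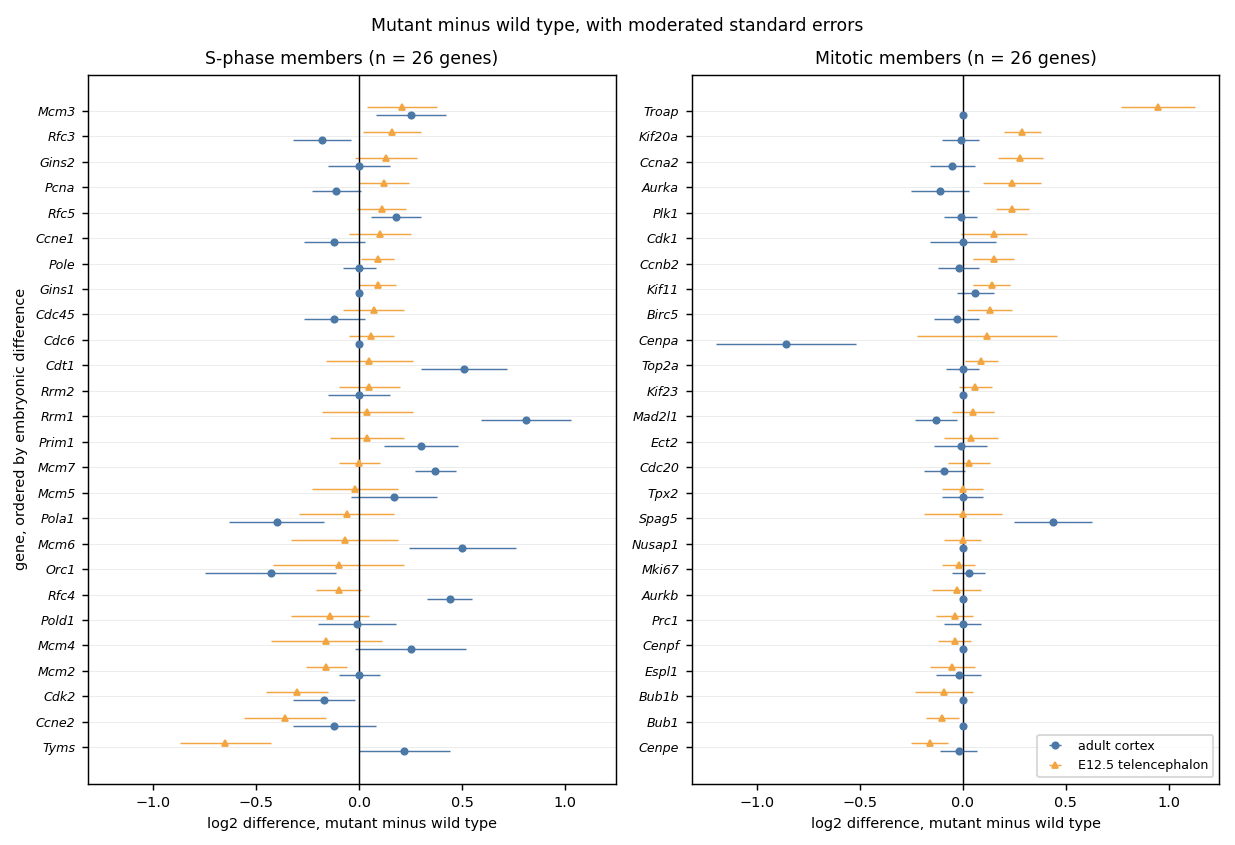
Log2 difference of mutant minus wild type (x axis) with its moderated standard error for each of 52 members (y axis, ordered by the embryonic difference), in adult cortex (circles) and E12.5 telencephalon (triangles). Most points lie near 0. Troap in embryos (0.95), Tyms in embryos (-0.65), Rrm1 in adults (0.81) and Cenpa in adults (-0.86) are the farthest out, and an adult point has no bar where all 6 adult values were the same.

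The difference between stages in the mutant effect, tested as an interaction, was called for none of the 52 members and for 0% of all genes. For 35 of the 52 no adult array read over 4. A fall in adult mutants could not be read in these, and their interaction rests largely on the embryos. At an unadjusted p under 0.05, 4 S-phase members were positive (Rfc4, Tyms, Mcm7 and Rrm1) and 2 mitotic members negative (Troap and Kif20a), while 5.5% of all genes met that rule. The lowest p-values were those of Troap (-0.95, 95% interval -1.51 to -0.39, limma adjusted p = 0.62), Rfc4 (0.54, 0.20 to 0.88, adjusted p = 0.66) and Tyms (0.86, 0.18 to 1.54, adjusted p = 0.867). Troap, Tyms and Kif20a were at or near the lowest value in adults, where a fall could not be read. Rfc4 depended on its probe set and was at -0.01 when its probe sets were averaged.

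The 85 further cell cycle genes, of which 29 had no adult array over 4, had 0 called in either mutant comparison and 0 in the difference between stages. At an unadjusted p under 0.05 by limma, 5 met the rule in adults (3 higher, 2 lower), 2 in embryos (1 higher, 1 lower) and 3 in the difference between stages (2 positive, 1 negative). Their medians were 0 in adults and -0.02 in embryos. Among lists of regulators, Cdc25, Wee1 and checkpoint kinases had a median embryonic difference of -0.09, E2F and pocket proteins of -0.04, and the MuvB, B-Myb and FoxM1 list of -0.11, each with 0 called. Kinase inhibitors had a median of -0.11. G1 cyclins and kinases went the other way, with a median of 0.20 and 4 of 5 positive, also with 0 called.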

How the data were processed

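Log2 expression values, 1 per probe set and array, were used as deposited, and the submitters' processing notes name GCRMA, a method that models background from probe sequence, with its version and settings not given in the sources used here. Per the labels' protocols, a 2-cycle kit amplified the RNA before biotin labelling. The arrays held 45101 probe sets, and per array 28.6% to 29.8% of values were at the lowest one, 2.19, where a difference is understated. The number of arrays limits the precision. Of the probe sets, 34945 had 1 gene symbol in the platform annotation, updated through gene IDs. Probe sets with a log2 value over 4 on at least 3 arrays were kept, and the one with the highest mean stood for its gene.

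All 11449 genes were fitted with limma (version 3.58.1, R 4.3.3; lmFit and eBayes) over 12 arrays as 4 group means, with contrasts between stages, between genotypes at each stage, and the difference between the latter. The fitting code was tested on simulated data. P-values are limma's, adjusted by Benjamini-Hochberg over all genes, and a gene was called under 0.05. SE are moderated, and intervals are 95%.

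The members, lists and naming rule were chosen with earlier results of these data known. The rule gives values for the 4 S-phase and 4 mitotic members of lowest p in each mutant comparison, the 3 of lowest p between stages, the 5 largest and 5 smallest stage differences, every member with a wild-type adult mean over 6, and of other cell cycle genes the 3 largest rises and falls. Alternatives varied the filter, probe sets, scaling, variance model, samples in the fit and each array in turn. Age pairs of adults and parents of embryos entered as a block in an alternative only. Deviations of wild types and mutants from their group means correlated at 0.51 and 0.14 to 0.25 between embryos of the same parents, which the labels name. Between embryos of different parents they correlated at -0.36 to -0.23. Between adults of the same age pair, which were not taken as paired, they correlated at 0.19, -0.01 and 0.27.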

Additional observations from a re-analysis of the deposited data

How the results depend on the processing

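All 52 members were called between stages, in wild types and in mutants, under the alternatives run that tested 52, and so were all 51 tested without _s_at and _x_at probe sets, which leave none for Aurkb. With the passing probe sets of a gene averaged, the mean S-phase minus mitotic difference was 1.40 between stages in wild types, 1.49 in mutants, 0.03 for adult mutants (0.12 as reported) and 0.09 for the difference between stages (0.24). Without _s_at and _x_at probe sets these were 1.90 in mutants, 0.02 for adult mutants and 0.13. The mean S-phase difference in adult mutants (0.09) was 0.00 and 0.02 under these settings. Called members numbered 1 in adults without _s_at and _x_at probe sets (Spag5, 0.97) and 0 to 1 in embryos when an array was left out (Troap, without wild-type embryo 3). Non-overlapping members with adult mutants higher were 1 S-phase and 1 mitotic with averaged probe sets, and 1 mitotic without _s_at and _x_at. With adult mutants lower they were 1 S-phase with averaged probe sets, 1 mitotic with quantile normalization, and 6 S-phase and 20 mitotic with arrays centred on their median, which moves values at the floor by construction. With embryonic mutants, averaged probe sets gave 4 mitotic members higher and 1 lower. Turned in sign were E2f5 between stages (-1.53), Rfc4 in adults (-0.10) and in the difference between stages of the mutant effect (-0.01), all with averaged probe sets, Mcm2 in embryos (0.08) without _s_at and _x_at, and Cdc20 in adults, from -0.16 to 0.01 when an array was left out (0.01 without mutant adult 3). The replicate block changed no call. The average without Troap and the fit without the first pair of parents were chosen after seeing the data, and the latter changed no call.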
